A study of Mus musculus with 12 samples.

Results

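The respiratory-chain genes described here encode the nuclear subunits of complex III, complex IV and ATP synthase, together with cytochrome c, in the white portion of the mouse gastrocnemius. They were chosen by name: every gene with a single symbol in the array's annotation that starts with Uqcr, Atp5, Cox4, Cox5, Cox6, Cox7 or Cox8, plus Cyc1 and Cycs. This rule found 43 of 12393 named genes, namely 9 of complex III, 16 of complex IV, 17 of ATP synthase and Cycs. Each gene was represented by its probe set with the highest mean log2 intensity over all 12 arrays.

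The muscle came from male C57BL/6 mice of generation F5, 17 to 18 weeks old and fasted overnight, and the 12 arrays are described as biological replicates, 6 to a genotype, each with a number of its own. One group was 6 transgenic mice carrying the R225Q form of the AMPK regulatory subunit gamma3 (arrays 1 to 6), and the other was 6 wild-type littermates (arrays 7 to 12). The promoter that drives the transgene and the number of founder lines are not given in the sources used here, and Prkag3, the gene that encodes gamma3, was not analysed here. The comparison asks how the fasting transcript levels of this gene family differ between the genotypes.

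Complex III passes electrons from ubiquinol to cytochrome c, a small soluble carrier, and complex IV hands them on to oxygen. Both complexes pump protons out of the mitochondrial matrix, and ATP synthase uses their return to make ATP. Fibres of white muscle hold fewer mitochondria than red fibres, and AMPK, a kinase that senses low energy, is known to favour mitochondrial gene expression in muscle. Several subunits of complex IV exist as a muscle isoform and a general isoform, and the catalytic core of complex IV comes from mitochondrial DNA and is outside the rule.

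All values below are RMA intensities on the log2 scale, each fold change sets transgenic over wild-type muscle on that scale, with limma's standard error (SE), and a gene was called at an adjusted p under 0.05 over all 22626 tested probe sets. Array medians lay between 97.81 and 103.1 on the linear scale, and correlations between arrays between 0.985 and 0.997. Transgenic array 1 and wild-type array 7, the only ones of a smaller chip lot, correlated least with the remaining arrays, at means of 0.9902 and 0.9888, where the other 10 arrays had means of 0.993 or more. Leaving both out moved the fold change of 13 of the 43 members by over 1.5 times, and the values without them are given for these members below. Of the tissue label, skeletal muscle was borne out by 11 fast fibre markers. Their mean lay between 13.45 and 13.56 log2 units in transgenic and between 13.43 and 13.52 in wild-type muscle. Of 6 cardiac markers 4 lay below the median probe set of 6.656, and of 11 slow and oxidative fibre markers 0 did. These lists cannot tell the white portion from the rest of the muscle.

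Levels of these genes were slightly higher in transgenic muscle across complex III and ATP synthase, and less evenly so in complex IV, but no single gene passed the test. All 9 complex III genes had fold changes above 0, with a median of 0.094. All 17 ATP synthase genes were above 0, with a median of 0.073. In complex IV 11 of 16 were above 0, with a median of 0.044, which was 0.026 without transgenic array 1. This list holds dim genes, 2 of them below the median probe set, while complex III and ATP synthase hold 0 such genes. Its 10 genes of 10 log2 units or more had 8 above 0 and a median of 0.074, or 0.05 without the smaller chip lot. Over all 12393 genes 49.4% were above 0 and the median was -0.001. The largest fold change of the family, that of Atp5g1, corresponds to a 1.16-fold higher level. These counts describe the lists and were not tested, since genes of one array vary together.

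By limma, 0 of 43 genes were called in either direction, against 0.0565% of all genes called higher and 0.0323% called lower (0.0442% and 0.0265% of all probe sets), and the lowest adjusted p in the family was 0.481. At an unadjusted p under 0.05, 9 of 43 genes (20.9%) were higher and 0 lower, where the shares over all genes were 2.63% and 2.28%. The share of higher genes at that p was 7.37% among the 651 genes with a mean of 10 log2 units or more, a level that 37 of the 43 members reach. The genotypes did not overlap, with transgenic higher, for 2 of 43 genes (4.65%), against 0.282% of all genes and 1.23% of the 651 bright genes. For 0 of 43 genes did they separate with transgenic lower, against 0.250% of all genes.

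**Figure D1:**
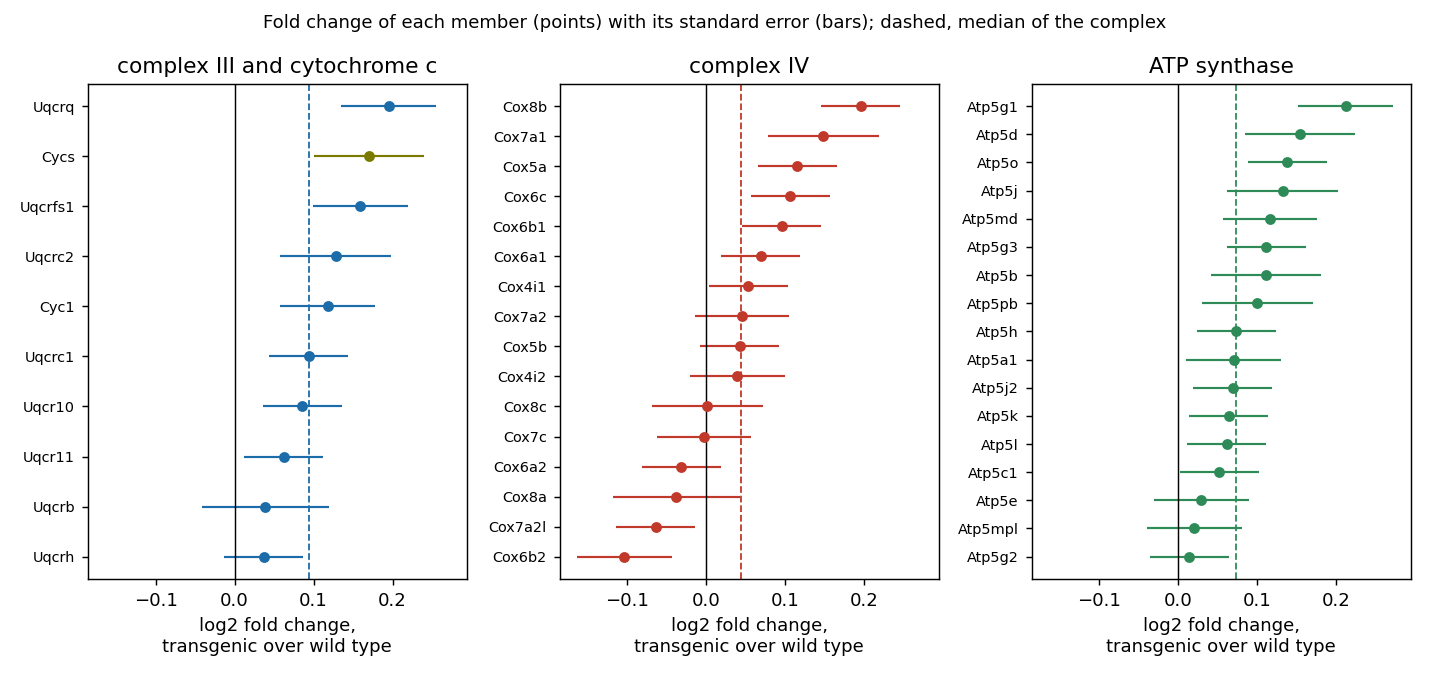
Log2 fold change (transgenic over wild type, horizontal axis) of each of the 43 genes, 1 row per gene, in 3 panels by complex, with cytochrome c beside complex III. Points are limma estimates from 6 against 6 arrays, bars are 1 SE, and dashed lines mark the median of each complex; complex III and ATP synthase lie wholly to the right of 0, and complex IV extends from -0.10 to 0.19.

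Among the complex III genes, Uqcrfs1 encodes the Rieske iron-sulfur protein, which takes electrons from ubiquinol. Its lowest, median and highest arrays were 11.89, 11.93 and 12.05 in transgenic muscle, against 11.56, 11.85 and 11.88 in wild-type muscle. The 6 transgenic arrays lay above every wild-type array, narrowly at the closest pair (11.89 against 11.88), and wild-type array 7 was the lowest of all. The fold change was 0.16 ± 0.06 (SE, n = 6 each; limma adjusted p = 0.798), and 0.12 without the smaller chip lot.

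Uqcrq encodes a small supernumerary subunit and had the largest complex III fold change, 0.20 ± 0.06 (SE; limma adjusted p = 0.655). Its arrays had a lowest, median and highest value of 10.90, 11.08 and 11.28 in transgenic muscle and 10.79, 10.89 and 11 in wild-type muscle. Here 5 of 6 transgenic arrays exceeded every wild-type array. The 3 dim probe sets of the same gene, between 6.51 and 7.23 log2 units, had fold changes between 0.00 and 0.04.

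The 2 core proteins of complex III, which form its matrix side, were both above 0. Uqcrc1 had lowest, median and highest arrays of 12.04, 12.09 and 12.18 in transgenic muscle, against 11.94, 12.00 and 12.07 in wild-type muscle, a fold change of 0.09 ± 0.05 (SE; limma adjusted p = 0.999). The groups overlapped, with all 6 transgenic arrays higher than the mean of wild type. Uqcrc2 was at 0.13 ± 0.07 with its brighter probe set and at 0.15 ± 0.05 with the other (limma adjusted p = 0.999 and 0.648). The brighter probe set was at 0.064 without transgenic array 4, its highest at 11.59. Cyc1, the cytochrome c1 haem protein that hands electrons to cytochrome c, averaged 11.97 ± 0.05 in transgenic mice and 11.85 ± 0.13 in wild-type mice (SD over 6 arrays each), a fold change of 0.12 ± 0.06 (SE).

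The remaining complex III genes encode small subunits with no redox group. Uqcr10 was at 0.09 ± 0.05 and Uqcr11 at 0.06 ± 0.05. Uqcrh, the hinge protein beside cytochrome c1, had the lowest fold change of the complex at 0.04 ± 0.05, with arrays of 10.88, 10.97 and 11.06 (lowest, median, highest) in transgenic muscle and 10.84, 10.95 and 10.97 in wild-type muscle, and it was at 0.02 without the smaller chip lot. Uqcrb, the brightest member at 13.22 log2 units, was at 0.04 ± 0.08, at 0.02 without the smaller chip lot and at -0.025 without wild-type array 7 alone, its lowest array at 12.88.

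Cycs, the gene of cytochrome c itself, had lowest, median and highest arrays of 12.07, 12.16 and 12.22 in transgenic muscle, against 11.70, 12.03 and 12.10 in wild-type muscle. The lowest 2 transgenic arrays fell within the wild-type range, and the other 4 lay above it. Its fold change was 0.17 ± 0.07 (SE; limma adjusted p = 0.862), and 0.13 without the smaller chip lot. A second probe set of the gene gave 0.17 ± 0.07 and another 0.08 ± 0.07.

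Of the muscle isoform genes of complex IV, Cox8b and Cox7a1 were above 0, and Cox6a2 was within 1 SE of 0. Cox8b, the muscle isoform of the smallest subunit, had the smallest unadjusted p of the family (0.00265). Its lowest, median and highest arrays were 12.16, 12.32 and 12.47 in transgenic muscle, against 12.09, 12.14 and 12.17 in wild-type muscle. The wild-type arrays were tightly grouped, with an SD of 0.03 against 0.11 in transgenic muscle, and 5 of 6 transgenic arrays lay above all of them. The fold change was 0.19 ± 0.05 (SE; limma adjusted p = 0.481), 0.17 on day 1 and 0.22 on day 2.

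Cox8a, the general isoform of that subunit, was at -0.04 ± 0.08 (SE; limma adjusted p = 0.999), at -0.02 without the smaller chip lot and at 0.025 without transgenic array 1. Its arrays were 10.05, 10.43 and 10.47 (lowest, median, highest) in transgenic muscle and 10.18, 10.44 and 10.52 in wild-type muscle, with transgenic array 1 well below the rest. The log2 difference of Cox8b minus Cox8a was 0.23 higher in transgenic than in wild-type muscle, with an SD of 0.25 in transgenic and 0.15 in wild-type arrays, and the change was 0.14 without transgenic array 1.

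Cox7a1, the muscle isoform of another small subunit, had lowest, median and highest arrays of 10.52, 10.69 and 10.83 in transgenic muscle, against 10.31, 10.53 and 10.67 in wild-type muscle. The groups overlapped between 10.52 and 10.67, with 3 transgenic arrays above all wild-type arrays and the others within the wild-type range. The fold change was 0.15 ± 0.07 (SE; limma adjusted p = 0.999). Its general counterpart Cox7a2 was at 0.04 ± 0.06, with arrays of 12.16, 12.25 and 12.41 in transgenic muscle and 12.09, 12.22 and 12.33 in wild-type muscle. The log2 difference of Cox7a1 minus Cox7a2 was 0.10 higher in transgenic than in wild-type muscle, which is less than the SD of that difference in transgenic (0.16) or wild-type arrays (0.15). It was 0.04 without wild-type array 7 and 0.16 without transgenic array 1.

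Cox6a2, the muscle isoform of subunit VIa, was at -0.03 ± 0.05 (SE; limma adjusted p = 0.999), within 1 SE of 0. Its arrays were 12.34, 12.39 and 12.52 in transgenic muscle and 12.35, 12.43 and 12.50 in wild-type muscle, and only 1 of 6 transgenic arrays exceeded the mean of wild type. The general isoform gene Cox6a1 was at 0.07 ± 0.05, with arrays of 9.71, 9.84 and 9.97 in transgenic muscle and 9.71, 9.79 and 9.81 in wild-type muscle, and it was at 0.044 without transgenic array 3. The log2 difference of Cox6a2 minus Cox6a1 was -0.10 in transgenic relative to wild-type muscle (SD 0.09 in transgenic and 0.04 in wild-type arrays). The 3 isoform differences are descriptions and were not tested.

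**Figure D2:**
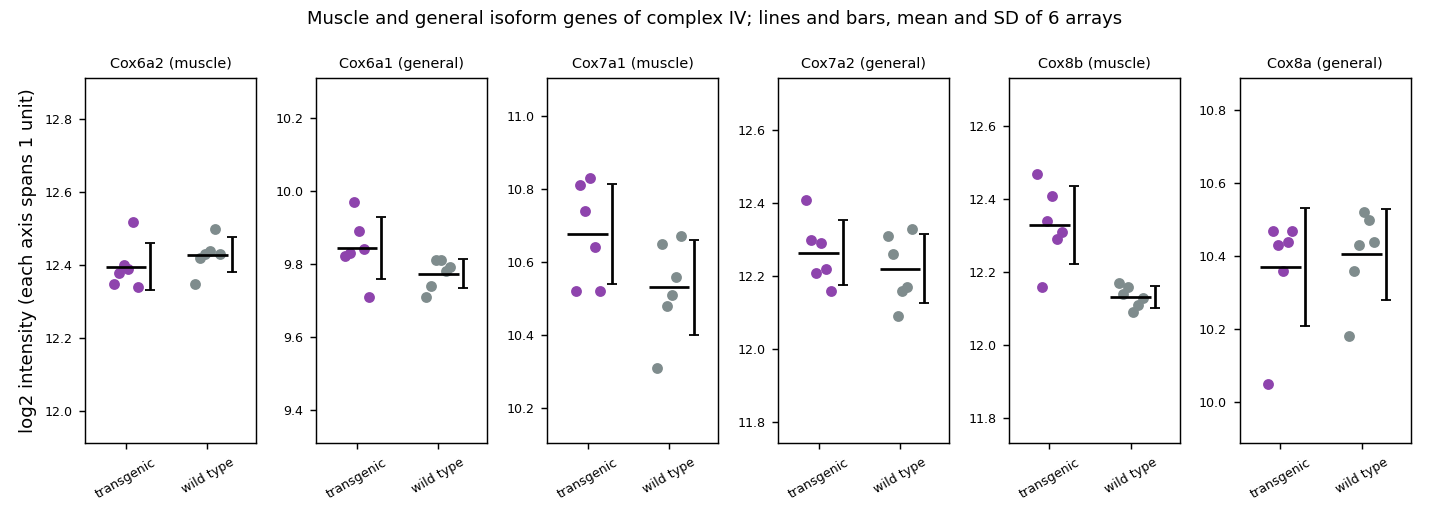
Log2 intensity (vertical axis, 1 unit in each panel) of the muscle and general isoform genes of complex IV on each of the 6 transgenic and 6 wild-type arrays. Points are arrays, horizontal lines are group means and bars are 1 SD; the groups are furthest apart for Cox8b, at means of 12.33 and 12.14, and closest together for Cox6a2, at 12.40 and 12.43.

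The complex IV subunits without a muscle isoform were mostly above 0. Cox5a, which sits on the matrix side of the complex, had lowest, median and highest arrays of 12.55, 12.65 and 12.70 in transgenic muscle, against 12.45, 12.53 and 12.60 in wild-type muscle. Here 5 of 6 transgenic arrays exceeded all wild-type arrays, and the fold change was 0.11 ± 0.05 (SE; limma adjusted p = 0.911). Cox6c was at 0.11 ± 0.05, or 0.06 without the smaller chip lot, and Cox6b1, which faces the intermembrane space, at 0.10 ± 0.05. Cox4i1, a regulatory subunit that binds ATP, was at 0.05 ± 0.05, with arrays of 12.42, 12.47 and 12.51 in transgenic muscle and 12.28, 12.44 and 12.48 in wild-type muscle, and was at 0.03 without the smaller chip lot. Cox5b, a zinc-binding subunit with 6 probe sets, was at 0.04 ± 0.05 with the brightest and between -0.02 and 0.11 with the others.

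The members of complex IV below 0 were Cox6a2 and Cox8a, described above, and Cox7a2l, Cox6b2 and Cox7c. Cox7a2l, known as a supercomplex assembly factor and counted here by its symbol, was at -0.06 ± 0.05 (SE, limma adjusted p = 0.999). Supercomplexes were not measured, and the part of the gene in them in these mice was not tested. Its arrays were 9.71, 9.75 and 9.81 in transgenic muscle and 9.77, 9.81 and 9.90 in wild-type muscle. None of the 6 transgenic arrays reached the wild-type mean, and the other 2 probe sets of the gene gave -0.15 ± 0.06 and -0.07 ± 0.06. Cox6b2, a testis isoform, had the lowest fold change of the family at -0.10 ± 0.06, on a level of 5.10 log2 units that is below the median probe set. Its arrays were 4.82, 5.10 and 5.15 in transgenic muscle and 5.08, 5.14 and 5.26 in wild-type muscle, and it was at -0.06 without the smaller chip lot.

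Cox7c was measured by 2 probe sets at 4.62 and 3.71 log2 units, also below the median probe set, and was at -0.003 ± 0.06, or 0.02 without the smaller chip lot. The gene encodes a general subunit of complex IV, and whether these probe sets target its main transcript was not tested, so its value is uncertain. Cox8c, known in humans as a testis gene, was at 0.001 ± 0.07, with arrays of 8.37, 8.50 and 8.52 in transgenic muscle and 8.29, 8.45 and 8.78 in wild-type muscle, and was at 0.07 without the smaller chip lot. Cox4i2, the lung isoform of subunit IV, was at 0.04 ± 0.06, with arrays of 7.15, 7.33 and 7.46 in transgenic muscle and 7.18, 7.23 and 7.40 in wild-type muscle. Restricted to the 10 complex IV genes of 10 log2 units or more, 8 were above 0 with a median of 0.074, and 8 with a median of 0.05 without the smaller chip lot.

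ATP synthase is made of a catalytic head, F1, and a membrane part, Fo, in which a ring of c subunits turns. The c subunit is encoded by 3 genes whose mature proteins are the same and whose import sequences differ. Atp5g1 had lowest, median and highest arrays of 11.71, 11.82 and 11.95 in transgenic muscle, against 11.40, 11.66 and 11.69 in wild-type muscle. The groups did not overlap, again with wild-type array 7 the lowest. The fold change was 0.21 ± 0.06 (SE; limma adjusted p = 0.499), 0.29 on day 1, 0.13 on day 2 and 0.17 without the smaller chip lot.

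The other c subunit genes were lower in fold change. Atp5g3 was at 0.11 ± 0.05 (SE; limma adjusted p = 0.968), with arrays of 12.22, 12.29 and 12.40 in transgenic muscle and 12.12, 12.19 and 12.28 in wild-type muscle. Atp5g2 was at 0.01 ± 0.05, the lowest of the complex, with arrays of 11.42, 11.55 and 11.61 in transgenic muscle and 11.47, 11.51 and 11.65 in wild-type muscle, and was at 0.03 without the smaller chip lot. Relative to Atp5g3 on the same array, the difference between transgenic and wild-type muscle was 0.10 for Atp5g1 (SD 0.06 in transgenic and 0.10 in wild-type arrays) and -0.10 for Atp5g2 (SD 0.05 in transgenic and 0.08 in wild-type arrays). These differences were not tested.

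Atp5o, the protein that links the stator stalk to the head, had lowest, median and highest arrays of 11.38, 11.46 and 11.54 in transgenic muscle, against 11.23, 11.34 and 11.41 in wild-type muscle. Of the transgenic arrays 4 lay above all wild-type arrays, and the fold change was 0.14 ± 0.05 (SE; limma adjusted p = 0.798). The other stalk genes were Atp5j at 0.13 ± 0.07, Atp5pb at 0.10 ± 0.07 and Atp5h at 0.07 ± 0.05. Atp5j was at 0.09 without the smaller chip lot, and differed most between hybridization days, with 0.26 on day 1 and 0.00 on day 2. Atp5pb was at 0.066 without transgenic array 4.

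In the F1 head, Atp5b, the catalytic beta subunit, was at 0.11 ± 0.07, and Atp5a1, the alpha subunit, at 0.07 ± 0.06. Atp5b was at 0.059 without transgenic array 4, its highest at 12.47, and Atp5a1 at 0.04 without wild-type array 11. Atp5c1, the turning gamma shaft, was at 0.05 ± 0.05 and Atp5e, the epsilon subunit, at 0.03 ± 0.06, or 0.01 without the smaller chip lot. Atp5d, the delta subunit at the foot of that shaft, was at 0.15 ± 0.07 (SE; limma adjusted p = 0.999), with transgenic array 1 at 11.81 and wild-type array 7 at 11.53 each the highest of its group. It was at 0.13 without both and at 0.092 without transgenic array 1 alone. Its second probe set gave 0.15 ± 0.05.

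The small membrane subunits of Fo lay between 0.02 and 0.12. Atp5md, also called DAPIT, was at 0.12 ± 0.06, Atp5j2 at 0.07 ± 0.05, Atp5k at 0.06 ± 0.05, Atp5l at 0.06 ± 0.05 and Atp5mpl at 0.02 ± 0.06. For Atp5j2 the second probe set was higher, at 0.19 ± 0.06 (limma adjusted p = 0.686). Without the smaller chip lot Atp5k was at 0.03 and Atp5mpl at 0.08. Atp5md was at 0.07 without wild-type array 7, and Atp5j2 at 0.042 without transgenic array 3. Over the whole family 23 genes had more than 1 probe set. Of the 29 further probe sets above the median probe set, 26 were above 0 with a median of 0.08; these come from the same RNA and are no separate evidence.

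Leaving out 1 array moved the fold change of 24 members by over 1.5 times. These include all 12 members that lay within 1 SE of 0, such as Cox4i2, which ranged from 0.009 to 0.071, Cox7a2, from 0.016 to 0.068, and Cox5b, from 0.023 to 0.066. The other 12 are Cox6b2, at -0.06 without transgenic array 1, and 11 genes above 0: Uqcrc2, Cox4i1, Cox6a1, Atp5a1, Atp5b, Atp5d, Atp5j, Atp5j2, Atp5k, Atp5md and Atp5pb.

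As a description apart from the fold changes, the promoter windows of the members were searched for 4 short motifs of factors known to bind respiratory-chain genes. RefSeq windows on build GRCm38.p6, from 250 bases before to 50 after the gene start, were matched by gene identifier for 32 of the 43 members. The motifs, read on both strands, were GCATGCG (core of the NRF1 site, nearly its own reverse complement, so both strands can match the same place), CCGGAAG (ETS family, to which GABPA belongs), AAGGTCA (bound by ERR receptors) and ATGGCGG (bound by YY1). The NRF1 core was in the windows of 8 members (25%), against 6.18% of the 9882 array genes with a window. The ETS motif was in 11 members (34.4%), against 16.4%, the ERR motif in 4 (12.5%), against 4.35%, and the YY1 motif in 2 (6.25%), against 7.65%. A match is a description of letters and not a binding site.

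The windows of 6 genes are shown: those of Uqcrfs1 and Atp5g1, whose genotypes did not overlap, those of the isoform pair Cox8b and Cox8a, that of Cycs, and that of Atp5l, which holds 3 of the motifs. All lie on the minus strand of GRCm38.p6, at chr13:30545267-30545566 (Uqcrfs1), chr11:96075582-96075881 (Atp5g1), chr7:140900397-140900696 (Cox8b), chr19:7217567-7217866 (Cox8a), chr6:50566520-50566819 (Cycs) and chr9:44920693-44920992 (Atp5l). Capitals mark motif matches, and windows in lower case throughout hold none of the 4.
Uqcrfs1: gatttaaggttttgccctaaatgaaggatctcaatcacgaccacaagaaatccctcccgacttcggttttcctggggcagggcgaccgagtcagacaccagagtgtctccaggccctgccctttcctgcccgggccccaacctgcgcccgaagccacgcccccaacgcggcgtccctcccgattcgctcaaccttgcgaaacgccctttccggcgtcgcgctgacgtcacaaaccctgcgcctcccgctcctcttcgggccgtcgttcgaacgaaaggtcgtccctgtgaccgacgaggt
Atp5g1: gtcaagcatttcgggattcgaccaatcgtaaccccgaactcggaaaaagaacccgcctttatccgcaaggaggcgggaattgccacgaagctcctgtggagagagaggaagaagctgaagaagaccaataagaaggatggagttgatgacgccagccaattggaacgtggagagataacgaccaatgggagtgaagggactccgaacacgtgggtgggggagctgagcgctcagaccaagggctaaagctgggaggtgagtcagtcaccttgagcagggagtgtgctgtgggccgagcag
Cox8b: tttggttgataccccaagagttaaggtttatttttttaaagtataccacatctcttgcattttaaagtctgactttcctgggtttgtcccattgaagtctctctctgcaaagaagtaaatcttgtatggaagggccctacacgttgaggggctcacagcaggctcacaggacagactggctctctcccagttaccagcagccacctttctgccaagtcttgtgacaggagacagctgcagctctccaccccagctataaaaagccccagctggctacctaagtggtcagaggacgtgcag
Cox8a: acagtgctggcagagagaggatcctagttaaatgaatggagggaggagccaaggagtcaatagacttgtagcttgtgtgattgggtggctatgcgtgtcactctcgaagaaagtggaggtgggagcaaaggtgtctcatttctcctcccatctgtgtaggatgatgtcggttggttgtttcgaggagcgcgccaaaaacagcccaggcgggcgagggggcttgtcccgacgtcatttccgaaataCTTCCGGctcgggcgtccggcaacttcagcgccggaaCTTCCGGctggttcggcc
Cycs: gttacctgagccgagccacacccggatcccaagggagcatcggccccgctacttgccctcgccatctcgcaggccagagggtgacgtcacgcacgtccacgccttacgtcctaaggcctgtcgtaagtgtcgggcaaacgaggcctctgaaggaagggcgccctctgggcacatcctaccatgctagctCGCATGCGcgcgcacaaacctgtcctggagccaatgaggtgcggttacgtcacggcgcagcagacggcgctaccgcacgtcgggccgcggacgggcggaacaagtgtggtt
Atp5l: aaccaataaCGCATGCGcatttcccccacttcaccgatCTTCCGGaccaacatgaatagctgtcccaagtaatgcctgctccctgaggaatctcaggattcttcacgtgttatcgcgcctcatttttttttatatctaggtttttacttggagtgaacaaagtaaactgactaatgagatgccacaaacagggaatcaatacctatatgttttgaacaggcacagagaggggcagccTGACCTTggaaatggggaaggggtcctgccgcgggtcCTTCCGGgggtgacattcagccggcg
The muscle isoform gene Cox8b has none of the motifs in its window, while that of the general isoform Cox8a holds the ETS motif at 2 places, both on the reverse strand. This contrast is of 1 pair. The windows of Cox7a1 and Cox7a2 both hold none, and that of Cox6a1 holds NRF1 and ETS matches, while Cox6a2 had no window. Cycs holds the NRF1 core on both strands at 1 place. The windows of Uqcrfs1 and Atp5g1 hold no match, and that of Atp5l holds NRF1, ETS and ERR matches at a fold change of 0.06 ± 0.05.

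By array, the mean of each complex was expressed relative to the wild-type mean of each gene. For complex III the transgenic arrays lay between 0.042 and 0.147 and the wild-type arrays between -0.076 and 0.049, with 5 of 6 transgenic arrays above all wild-type arrays. ATP synthase lay between 0.014 and 0.146 in transgenic and between -0.051 and 0.047 in wild-type muscle, again with 5 of 6 above. Complex IV overlapped more, with values between -0.008 and 0.075 in transgenic and between -0.016 and 0.040 in wild-type muscle. The complex IV mean takes in its dim genes, 2 of them below the median probe set. Transgenic array 6 was the lowest transgenic array for all 3 complexes, and wild-type array 7 the lowest wild-type array for complex III and ATP synthase.

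**Figure D3:**
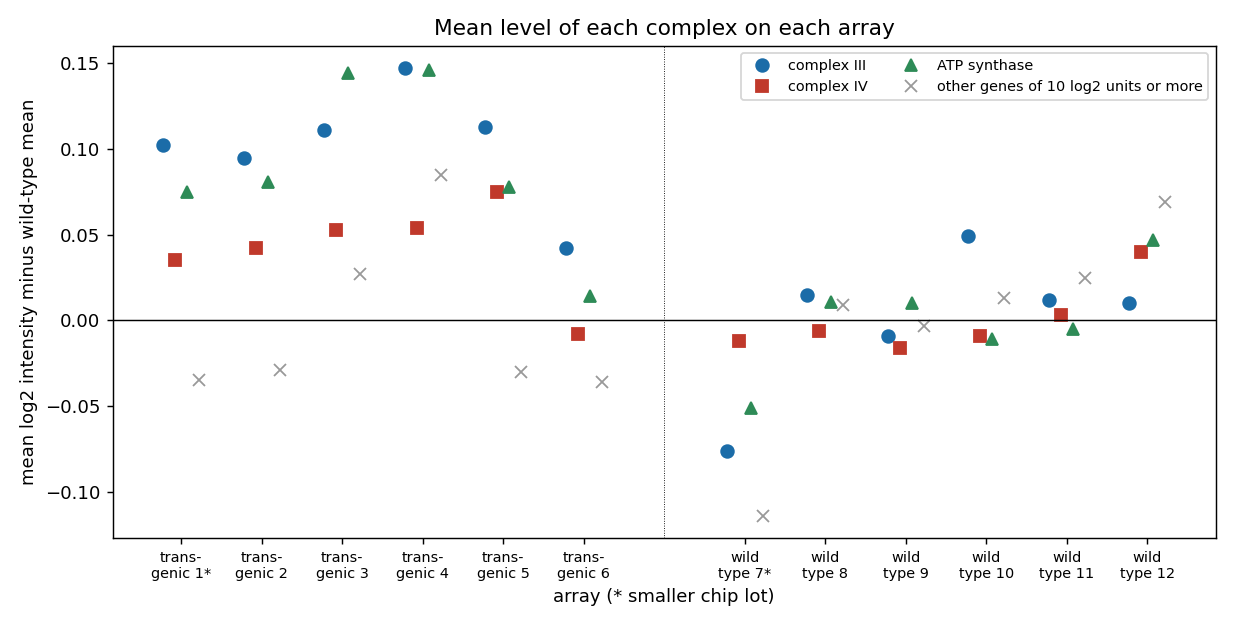
Mean log2 intensity of each complex minus its wild-type mean (vertical axis) on each of the 12 arrays, transgenic at left and wild type at right, with the mean of the 614 other genes of 10 log2 units or more as grey crosses and an asterisk for the smaller chip lot. The wild-type array 7 is low for complex III (-0.076), for ATP synthase (-0.051) and for the other bright genes (-0.114), and transgenic array 6 is at 0.014 for ATP synthase.

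Wild-type array 7 held the lowest wild-type value for 21 of 43 members, and its 614 other genes of 10 log2 units or more were also low, at -0.114 on average. Over all arrays 294 of those 614 bright genes (47.9%) had fold changes above 0, with a median of -0.004. Without the smaller chip lot 257 of 614 were above 0, with a median of -0.02, and by day the counts were 350 on day 1 and 237 on day 2, with medians of 0.019 and -0.03. For the members, without the smaller chip lot, the medians were 0.104 for complex III, 0.041 for complex IV and 0.079 for ATP synthase, and 39 of 43 members were above 0. Quantile normalization repeated on the deposited values gave 0.092, 0.028 and 0.095, with 37 of 43 above 0.

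**Figure D4:**
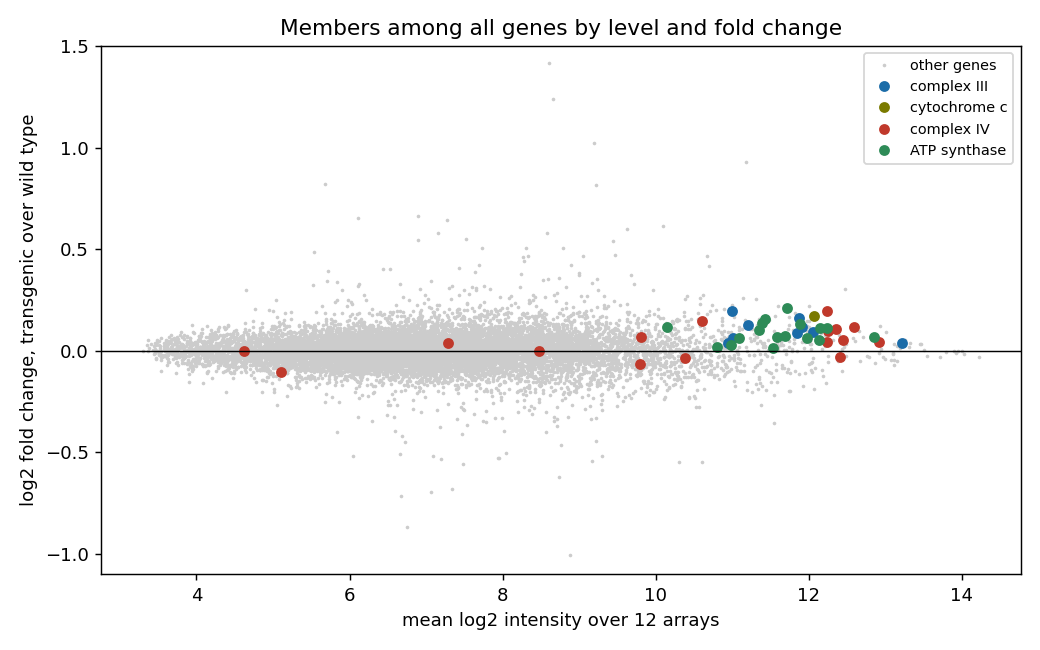
Log2 fold change (vertical axis) against mean log2 intensity over 12 arrays (horizontal axis) for all 12393 genes, with the 43 members in colour. Of the members 37 lie at 10 log2 units or more and 35 of these are above 0, while 294 of the other 614 bright genes are above 0.

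Each hybridization day held 3 arrays of each genotype, and fold changes were taken within each. On day 1 the medians were 0.109 for complex III, 0.04 for complex IV and 0.095 for ATP synthase. On day 2 they were 0.09, 0.034 and 0.074. Within each day 0 of 43 members were called by limma, and 0 were lower at an unadjusted p under 0.05. At that p 4 members were higher on day 1, against 2.79% of all genes higher and 1.65% lower. On day 2 only 1 was higher, against 1.39% of all genes higher and 2.61% lower. All 17 ATP synthase genes, 8 of 9 complex III genes and 10 of 16 complex IV genes were above 0 on both days, the complex III exception being Uqcrh, at 0.11 on day 1 and -0.04 on day 2. Of the 43 members 31 had the larger fold change on day 1. Both arrays of the smaller chip lot, transgenic array 1 and wild-type array 7, belong to day 1. The part of the lot in the difference between days was not tested.

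**Figure D5:**
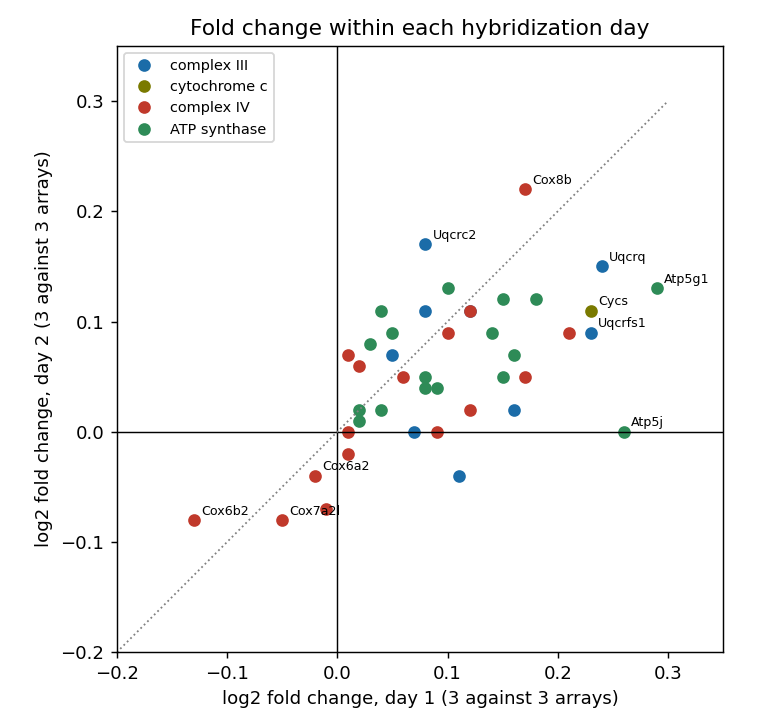
Log2 fold change of each of the 43 members within hybridization day 2 (vertical axis) against that within day 1 (horizontal axis), each from 3 transgenic and 3 wild-type arrays. Day 1 holds both arrays of the smaller chip lot. The dotted line marks equal values; most points lie in the upper right, above 0 on both axes, with Cox8b at 0.17 and 0.22, and Cox6b2, Cox7a2l and Cox6a2 at lower left.

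Genes of the other complexes were also mostly above 0. Complex I genes were listed by name only, as symbols that start with Ndufa, Ndufb, Ndufc, Ndufs or Ndufv, Ndufa4 (0.10 ± 0.05) among them. Of 34 measured, 33 were above 0 with a median of 0.068 (0.047 without the smaller chip lot, 0.086 on day 1 and 0.038 on day 2). Limma called 0 of them. At an unadjusted limma p under 0.05, 5 (14.7%) were higher, against 2.63% of all genes and 7.37% of the 651 bright genes. The 2 smallest p-values of this list were those of Ndufb5 at 0.19 ± 0.06 and Ndufa8 at 0.20 ± 0.07 (SE, limma adjusted p = 0.702 and 0.798). Complex II, succinate dehydrogenase, had 4 of 4 above 0 with a median of 0.087 (0.056 without the smaller chip lot, 0.124 on day 1 and 0.028 on day 2), led by Sdhb at 0.10 ± 0.05 and Sdhd at 0.13 ± 0.08. ND5 was the only mitochondrial DNA gene with a single symbol, at 0.09 ± 0.10. Differences between the complexes were not tested.

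Of 25 measured assembly factors of complexes III and IV and ATP synthase, 18 were above 0 with a median of 0.056 (0.032 without the smaller chip lot, 0.08 on day 1 and 0.031 on day 2). Limma called 0 of them, and 3 (12%) were higher at an unadjusted limma p under 0.05, against 2.63% of all genes. Ttc19, a factor that keeps the Rieske protein of complex III in order, was at 0.21 ± 0.06 (SE; limma adjusted p = 0.499), and Tmem70, an ATP synthase assembly factor, at 0.17 ± 0.07. The carriers of ATP and phosphate and their partners had 7 of 7 above 0 with a median of 0.046. The count was 6 of 7 without the smaller chip lot (median 0.03), 6 on day 1 (0.059), 4 on day 2 (0.011) and 5 after quantile normalization (0.04). Here Ckmt2, the mitochondrial creatine kinase of muscle, was at 0.15 ± 0.06 and Vdac3 at 0.07 ± 0.07. Genes of the transcription factors and coactivators of mitochondrial biogenesis counted 6 of 18 above 0, with a median of -0.017 (10 of 18 and 0.005 on day 2), Pprc1 being at -0.10 ± 0.07 and Mef2c at -0.14 ± 0.09. Limma called 0 of the 18, and 0 at an unadjusted p under 0.05.

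Markers of other fibres and cells were read on the same arrays. Of 11 slow and oxidative fibre markers 2 were above 0, with a median of -0.465 (day 1 alone -0.673, day 2 alone -0.229), and the list mean ran from 8.33 to 9.17 log2 units in transgenic and from 8.31 to 9.67 in wild-type muscle. Of 5 white adipocyte markers 0 were above 0, with a median of -0.516 (day 1 alone -0.094, day 2 alone -0.734) and a list mean from 7.50 to 8.20 in transgenic and from 7.95 to 8.79 in wild-type muscle. Endothelial markers had 11 of 12 above 0 with a median of 0.138 (day 1 alone 0.217, day 2 alone 0.061), on list means from 7.84 to 7.99 in transgenic and from 7.69 to 7.88 in wild-type muscle. The list means of the genotypes overlapped for all 3 lists. Of 4 measured brown adipocyte markers 2 were above 0, with a median of 0.002, and 3 lay below the median probe set. Among these 3, Ucp1 was at 6.50 ± 0.17 in transgenic mice and 6.56 ± 0.09 in wild-type mice (SD over 6 arrays each). Fibroblast markers had 0 of 6 above 0 with a median of -0.12 (day 1 alone -0.02, day 2 alone -0.158). Limma called 0 of all these markers. At an unadjusted limma p under 0.05, 6 of 12 endothelial markers (50%) were higher, against 2.63% of all genes. At that p 3 of 5 white adipocyte and 1 of 11 slow fibre markers were lower, against 2.28% of all genes. The part of these cell types in the values of the respiratory genes was not tested, and in whole tissue fewer cells of a type and less RNA per cell cannot be told apart.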

How the data were processed

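RNA of white gastrocnemius from 6 transgenic and 6 wild-type mice was hybridized to 12 Affymetrix mouse arrays of 1 type. The authors deposited 1 intensity per probe set and array, made with RMA per the submitters' processing notes, whose version is not given in the sources used here; the values show that they are on the linear scale. They were taken to log2 with no pseudocount. Of 22690 probe sets, 64 controls were set aside and 22626 tested, with no filter on low values; 20380 had 1 symbol, 691 several and 1555 none, and only those with 1 symbol were named.

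Genotypes were taken from the sample titles and compared with limma 3.58.1 (lmFit and eBayes, R 4.3.3), 6 against 6 arrays, with two-sided p-values adjusted by Benjamini and Hochberg over all tested probe sets. The code was tested on simulated data. The number of arrays limits the precision: the median SE was 0.0689 log2 units.

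The members and lists were chosen with earlier results of these data known. Every member may be named. Array values are given for the 3 smallest p-values and the lowest fold change of each complex, the isoform pairs, Cycs and members whose genotypes did not overlap, and for other members where an array stands apart or a level is low; other lists are represented by their 2 smallest p-values. Further probe sets, Uqcrc2 among them, and the genes Ucp1 and Ndufa4 were named after their values were seen. Hybridization day and chip lot come from the array files' headers. Runs are not recorded there. They were formed from the hybridization times, a new run starting after a gap of more than 10 minutes. Alternatives were each array left out, the smaller chip lot left out, each day alone, day or run as a block, repeated quantile normalization, median centring, a pseudocount of 16, dim probe sets left out, trended and robust variances, and 2 other rules for the probe set of a gene.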

Additional observations from a re-analysis of the deposited data

Results flagged for a closer look

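Within each genotype, an array was singled out where its gap to the next array exceeded the critical share of the range of the 6 arrays (Dixon's criterion). Of 86 groups of member values 10 met this, and of 6 groups of complex means 1 did, where chance gives about 1 in 20. Transgenic array 1 was low for Cox8a (10.05, next 10.36) and high for Atp5d (11.81, next 11.49). Transgenic array 5 was high for Cox6a2 (12.52, next 12.40). Wild-type array 7 was low for Uqcr10 (11.70, next 11.81), Uqcrb (12.88, next 13.23), Uqcrfs1 (11.56, next 11.78), Cox4i1 (12.28, next 12.41) and Atp5j (11.58, next 11.81), and high for Atp5d (11.53, next 11.33). Wild-type array 12 was high for Atp5g2 (11.65, next 11.54) and for the mean of complex IV (0.04 above the wild-type mean, next 0.003). Transgenic array 1 and wild-type array 7 are those of the smaller chip lot, and the part of the lot in these values was not tested.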

How the results depend on the processing

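Limma called 0 of 43 members under every alternative run, and the lowest adjusted p of a member was 0.238. Under the 12 settings that leave out no single array, 507 of 514 member fold changes kept their sign. The 7 that reversed were Uqcrh on day 2 alone (-0.035), Cox7c without the smaller chip lot (0.019), on day 1 alone (0.013) and with run as a block (0.017), Cox8c on day 2 alone (-0.004) and after quantile normalization (-0.01), and Atp5g2 as the mean over its probe sets (-0.007). Leaving out single arrays turned the sign of 6 members, whose ranges were -0.025 to 0.084 for Uqcrb, -0.028 to 0.034 for Cox7c, -0.084 to 0.025 for Cox8a, -0.036 to 0.062 for Cox8c, -0.001 to 0.038 for Atp5g2 and -0.008 to 0.052 for Atp5mpl. The cause was not tested.

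Over all probe sets, 10 were called higher and 6 lower. With fewer arrays, day 1 alone gave 1 higher and 0 lower (576 and 361 at an unadjusted p under 0.05 by limma), and day 2 alone 1 and 1 (284 and 598 at that p). Run as a block gave 4 and 2, and day as a block gave 11 lower. Leaving out single arrays gave 4 to 12 higher and 1 to 6 lower. No paired analysis was possible because the replicate numbers of the genotypes are not shared.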

Other observations

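Among the 32 members with a promoter window, the 16 that hold at least 1 of the 4 motifs had a median log2 fold change of 0.071 and the 16 that hold none had 0.093; the difference was not tested. At least 1 motif was in 16 of 32 windows, against 29.9% of the 9882 array genes with a window. By complex, windows with a motif were 3 of 5 for complex III, 3 of 11 for complex IV and 9 of 15 for ATP synthase.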
